A study of Mus musculus with 3 samples.

Results

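The cells described here are gamma delta T cells of mouse lung that carried at least 1 UMI of Cxcr3 and no UMI of Il17a, where a UMI is 1 counted RNA molecule. They were chosen by transcript counts in 2 of the 3 single-cell libraries of the study, after barcodes with fewer than 500 genes or over 10% mitochondrial UMIs had been left out. The gate asked for at least 2 UMIs of Trdc, at least 1 UMI of Cd3e or Cd3d, and at least 1 UMI of Tcrg-V6, Cd163l1 or Trdv4. Of 5164 cells kept in the series, 3542 came from these 2 libraries, 1937 of them were in the gate and 399 were Cxcr3+ Il17a- cells. These were set against 578 gate cells with neither a Cxcr3 nor an Il17a UMI (Cxcr3- Il17a- cells) and against 960 gate cells with an Il17a UMI (Il17a+ cells).

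The study sorted lymphocytes from the perfused and digested lungs of mice with a GFP reporter of Gfi1b, all of them live, CD45+, lineage-negative, CD90.2+ and IL-7R+, to compare innate lymphoid cells by GFP signal. The first library, called the pool here, mixes cells sorted as IL-18R+ CD103+ GFP- with cells sorted as IL-18R+ CD103- GFP+, and nothing in the labels maps its barcodes to either sort. The second carries the label IL-18R- CD103- GFP- and is called the labelled-negative library. The third, labelled IL-18R- ST2+, served only as a source of ILC2 for comparison. With 5 gate cells of 1622, it cannot show how much free RNA of gamma delta T cells lay in the other libraries. The labels name no treatment and give no age, sex or number of mice for any library. Each label is 1 library, and the pool mixes 2 sorts, so no test was run: the intervals given are 95% limits of counting error within a library, and they hold nothing of the spread between mice.

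Gamma delta T cells carry a T cell receptor of a gamma and a delta chain, and in the mouse the variable segment of the gamma chain marks the wave in which they left the thymus. Cells that pair the gamma segment Tcrg-V6 with the delta segment Trdv4 settle in lung and other tissues before or around birth and are known as rapid sources of IL-17A, a programme that depends on the transcription factors MAF and SOX13. CXCR3, the receptor of the interferon-induced chemokines CXCL9, CXCL10 and CXCL11, is best known from T cells and NK cells of the type 1 kind, which are driven by T-bet (Tbx21) and make interferon gamma. SCART1 (Cd163l1) is a scavenger receptor of IL-17-producing gamma delta T cells, and NKG2D (Klrk1) is an activating receptor of NK cells and cytotoxic T cells.

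The receptor segments that define these cells are shown by the last 60 bases of their transcripts (GRCm38, GENCODE M21, plus strand), with the codon of the conserved cysteine ahead of the junction in capitals. Tcrg-V6 lies at chr13:19190356-19190929 and Trdv4 at chr14:54074905-54075515. The gamma segments of other waves, Tcrg-V4 at chr13:19184974-19185506 and Tcrg-V1 at chr13:19339989-19340454, are given for comparison.
Tcrg-V6: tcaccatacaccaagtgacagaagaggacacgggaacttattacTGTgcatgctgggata
Trdv4: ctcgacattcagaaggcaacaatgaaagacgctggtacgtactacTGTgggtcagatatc
Tcrg-V4: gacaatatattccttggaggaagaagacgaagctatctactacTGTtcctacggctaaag
Tcrg-V1: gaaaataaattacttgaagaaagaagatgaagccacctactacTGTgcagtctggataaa
The Tcrg-V6 transcript was identical to Tcrg-V4 at 57.2% and to Tcrg-V1 at 55.1% of aligned bases. Reads of Tcrg-V6 and of those segments therefore differ in sequence, whereas the constant genes Tcrg-C1 and Tcrg-C2 shared 96.15% and Tcrg-V1 and Trgv2 shared 95.19% of aligned bases, so the counts of those near copies are uncertain.

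The filter kept 1659 of 1688 barcodes of the pool and 1883 of 1903 of the labelled-negative library. The kept cells had a median of 4932 UMIs in the pool and 4772 in the other library. The Cxcr3+ Il17a- cells had a median of 4430 UMIs in the pool and 4448 in the other library, against 4663 and 4344 in the Cxcr3- Il17a- cells and 4739 and 4569 in the Il17a+ cells. Only 1 barcode occurred in both libraries, and it was not a Cxcr3+ Il17a- cell. The transcripts did not follow one label. The labels name the sort, whereas RNA was counted here and not surface protein, so whether the label is right was not tested. Il18r1, which encodes the IL-18 receptor chain of the sort, had 798.4 UMIs per 1000000 UMIs of the class (UPM) in Cxcr3+ Il17a- cells of the pool and 750.0 UPM in those of the labelled-negative library, whose label says IL-18R-, and 100% and 89.3% of these cells had an Il18r1 UMI, against 5.62% of 1264 ILC2. The label CD103- did match the transcripts: Itgae, which encodes CD103, had 98.1 UPM in the pool and 2.63 UPM in the other library.

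The Cxcr3+ Il17a- cells made up 82 of 777 gate cells in the pool, 10.55% (8.48% to 12.9%, Clopper-Pearson), and 317 of 1160 gate cells in the labelled-negative library, 27.3% (24.8% to 29.99%). The Cxcr3- Il17a- cells took nearly the same share of both gates, 29.9% and 29.8%. The gap lay in the Il17a+ cells without Cxcr3, which made up 51.99% of the gate in the pool and 27.5% in the labelled-negative library, and the Cxcr3+ Il17a+ cells were 7.59% and 15.3%. A Cxcr3 UMI was thus found in 26.1% of the Il17a- gate cells of the pool and 47.8% of those of the labelled-negative library, and in 12.7% and 35.8% of the Il17a+ cells. The sorts differ in markers and each label is 1 library, so a difference between sorts and one between libraries cannot be told apart.

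A cell can miss a UMI of a gene that it expresses, and the classes move with depth. With every cell thinned to 2000 UMIs, the Cxcr3+ Il17a- cells were 7.15% of the pool's gate (5.32% to 9.37%) and 20% of the gate of the labelled-negative library (201 of 1005 cells, 17.57% to 22.61%). The thinned shares of Cxcr3- Il17a- cells were 41.6% and 46.6%, and the order of the libraries was the same for each class with a Cxcr3 UMI. No ILC2 of the 1264 had a Cxcr3 UMI, which allows a share of up to 0.237%, but that library held only 5 gate cells. Among cells of the 2 gated libraries with no T cell transcripts and at least 3 UMIs of B cell, myeloid or stromal markers, 0 of 99 in the pool (up to 3.03%) and 1 of 20 in the labelled-negative library (5.0%, 0.127% to 24.9%) had a Cxcr3 UMI. The background in the labelled-negative library is thus known only loosely.

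**Figure D1:**
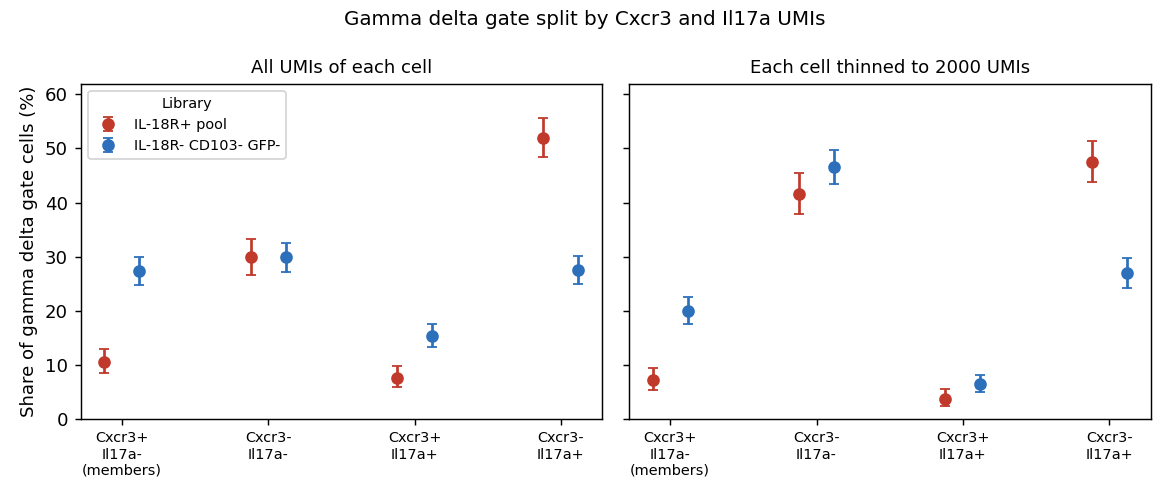
Share of gamma delta gate cells (percent, y axis) in each of the 4 classes by Cxcr3 and Il17a UMIs, for the IL-18R+ pool and the labelled-negative library (IL-18R- CD103- GFP- in the legend), at each cell's own depth and thinned to 2000 UMIs per cell. Error bars are 95% Clopper-Pearson limits; Cxcr3+ Il17a- cells were 10.55% of the gate in the pool and 27.3% in the other library.

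Around the thresholds, most cells sat near 1 UMI. Among Il17a- gate cells of the pool, 232 had no Cxcr3 UMI, 46 had 1, 20 had 2, 12 had 3 and 4 had more, up to 5. In the labelled-negative library 346 had none, 187 had 1, 73 had 2, 41 had 3 and 16 had more, up to 7. Just outside the Il17a limit, 12 cells of the pool and 50 of the labelled-negative library had exactly 1 Il17a UMI and otherwise met the rule. Trdc was far from its limit: the median was 11 UMIs in the pool and 12 in the labelled-negative library, and 80 of 82 and 306 of 317 cells had at least 4. No pool cell and 8 cells of the labelled-negative library had exactly 1 Trdc UMI and otherwise met the rule.

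Nearly all of these cells had UMIs of both Trdv4 and Cd163l1. Trdv4 was found in 92.7% of Cxcr3+ Il17a- cells of the pool and 95.3% of those of the labelled-negative library, at 1144 and 1212 UPM. It is a poor marker on its own here, since 44.7% of the ILC2 also had a Trdv4 UMI. Cd163l1 was found in 98.8% and 97.2% of the Cxcr3+ Il17a- cells, at 1253 and 1049 UPM, against 0.0791% of ILC2. Tcrg-V6 was found in 41.5% and 54.6%, at 133.5 and 195.6 UPM, against 0.791% of ILC2. All 3 of these genes, which the rule used one for another, occurred together in 33 pool cells and 163 cells of the labelled-negative library, and only 1 and 9 cells had no Cd163l1 UMI.

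Among receptor genes that the rule did not use, the gamma segments Tcrg-V4 and Tcrg-V1 were low. Tcrg-C1, a gamma constant gene, had 904.7 UPM in Cxcr3+ Il17a- cells of the pool and 838.9 UPM in those of the labelled-negative library. Tcrg-V4, the gamma segment of another IL-17-producing wave, had 2.73 and 6.58 UPM, and Tcrg-V1 had 16.4 and 22.4 UPM. Between these cells and the Cxcr3- Il17a- cells, no gene among the 7 measured T cell receptor chains passed the size rule explained below. Tcrg-C1 had 770.4 and 796.3 UPM in Cxcr3- Il17a- cells. Trgv2, the near copy of Tcrg-V1, was not low: it had 122.6 and 117.2 UPM in Cxcr3+ Il17a- cells against 130.3 and 123.3 UPM in Cxcr3- Il17a- cells, and was found in 28 of 82 and 96 of 317 Cxcr3+ Il17a- cells, against 1.82% of ILC2.

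Most markers of other cells were low, but not the beta constant genes or Cst3 of the myeloid list. Trac, the alpha constant gene, was found in 12.2% of Cxcr3+ Il17a- cells of the pool and 15.1% of those of the labelled-negative library, against 7.36% of ILC2 and 33.9% and 25.6% of the cells outside the gate. Trbc1, a beta constant gene, was found in 67.1% and 69.7% of these cells and in 72.5% of ILC2. Of the 7 alpha beta T cell markers, Cd4, Cd8a, Cd8b1 and Foxp3 were at 0 in the pool's Cxcr3+ Il17a- cells, and none was at 0 in those of the labelled-negative library. Over the classes of both gates the summed levels of whole lists ranged from 1375 to 1649 UPM for alpha beta T cells, 267 to 365.6 UPM for ILC2, 61.4 to 92.1 UPM for B cells, 205.6 to 253.4 UPM for myeloid cells and 26.1 to 89.9 UPM for stroma, endothelium and epithelium. The Cxcr3+ Il17a- cells of the pool held the highest sums for alpha beta T cells and for stroma, and those of the labelled-negative library had 1499 and 47.4 UPM for these lists. The myeloid sum was highest in the same cells of the pool too, 253.4 UPM, against 206.1 UPM in those of the labelled-negative library. In the pool 89 of its 93 UMIs were of Cst3, spread over 47 of 82 cells, and Lyz2, Csf1r, C1qa and S100a9 were at 0. In each library 1 Cxcr3+ Il17a- cell held all UMIs of the endothelial genes Cldn5 and Cdh5, 13 and 8 in the pool and 13 and 7 in the labelled-negative library. The part of stromal and myeloid RNA in the results below was not tested. Alternatives for alpha beta T cell RNA are given beside the results. Of the 9 ILC2 markers, 5 were at 0 in the Cxcr3+ Il17a- cells of the pool and 2, Il5 and Il13, in those of the labelled-negative library.

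Against the Cxcr3- Il17a- cells, the Cxcr3+ Il17a- cells had more Serpina3g, Basp1 and Klrb1b and less Etv3 and Ncoa3 in both libraries. These 5 were all the genes that passed a size rule: at least 50 UPM in either class in each library and a ratio of at least 1.5 the same way in both, with sums raised to a floor of 3 UMIs. Of 2891 genes measured, 3 were higher (0.104%) and 2 were lower (0.0692%), 0.173% together, not counting the 8 genes that set the gate and the classes. In the pool alone, with its 82 cells, 10.8% of 3233 genes passed that ratio, and in the labelled-negative library alone 1.35% of 3044 genes did. Nearly all measured genes therefore differed by less than 1.5 times between Cxcr3+ Il17a- and Cxcr3- Il17a- cells of the labelled-negative library, the one with more cells.

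Serpina3g, which encodes a serpin that inhibits cathepsin proteases, had 117.2 UPM in Cxcr3+ Il17a- cells of the pool against 27.9 UPM in Cxcr3- Il17a- cells, a ratio of 4.20 (2.57 to 6.93, counting error only). In the labelled-negative library it had 64.5 UPM in Cxcr3+ Il17a- cells against 38.1 UPM in Cxcr3- Il17a- cells, a ratio of 1.69 (1.21 to 2.38). It was found in 20.7% and 20.2% of Cxcr3+ Il17a- cells, against 7.76% and 13.0% of Cxcr3- Il17a- cells. The pool value leaned on few cells, 3 of which held 39.5% of the Serpina3g UMIs, and 15.9% of the ILC2 had a Serpina3g UMI. Its transcript shares 89.76% of aligned bases with that of Serpina3f, so reads could be split between them.

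Klrb1b, which encodes an inhibitory NK cell receptor of the NKR-P1 family, had 79.0 UPM in Cxcr3+ Il17a- cells of the pool against 25.1 UPM in Cxcr3- Il17a- cells, a ratio of 3.15 (1.80 to 5.52). In the labelled-negative library it had 83.6 UPM in Cxcr3+ Il17a- cells against 52.95 UPM in Cxcr3- Il17a- cells, a ratio of 1.58 (1.19 to 2.11), just past the limit. Basp1, which encodes a membrane-associated phosphoprotein, had 81.75 UPM in Cxcr3+ Il17a- cells against 26.05 UPM in Cxcr3- Il17a- cells of the pool and 55.3 UPM in Cxcr3+ Il17a- cells against 30.35 UPM in Cxcr3- Il17a- cells of the labelled-negative library. The Klrb1b level was nearly the same in the Cxcr3+ cells of both libraries, whereas the Cxcr3- cells of the labelled-negative library had more than those of the pool.

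The genes that were lower encode nuclear proteins. Etv3, an ETS-family repressor, had 24.5 UPM in Cxcr3+ Il17a- cells of the pool against 62.3 UPM in Cxcr3- Il17a- cells (2.54-fold lower, 1.26 to 5.80), and 36.2 UPM in Cxcr3+ Il17a- cells against 56.8 UPM in Cxcr3- Il17a- cells of the labelled-negative library (1.57-fold lower, 1.11 to 2.24). Ncoa3, a coactivator of nuclear receptors, had 32.7 UPM in Cxcr3+ Il17a- cells against 57.7 UPM in Cxcr3- Il17a- cells of the pool, where the interval of the ratio included 1, and 31.6 UPM in Cxcr3+ Il17a- cells against 51.0 UPM in Cxcr3- Il17a- cells of the labelled-negative library. Each of the 5 genes missed the rule under some of 13 other settings: it was passed by Basp1 under 10, Serpina3g under 9, Etv3 under 8, Ncoa3 under 7 and Klrb1b under 5. Without the cells that had a Trac, Cd4 or Cd8b1 UMI, 72 Cxcr3+ Il17a- cells were left in the pool and 264 in the labelled-negative library, and 6 genes passed. Basp1 and Ncoa3 were 2 of the 6, whereas Serpina3g, Klrb1b and Etv3 did not pass.

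**Figure D2:**
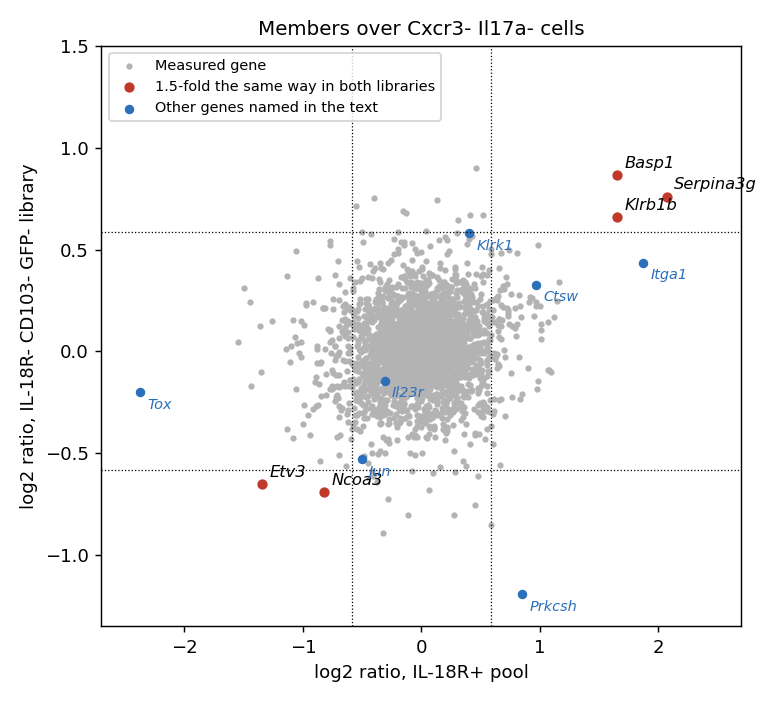
Log2 ratio of levels in UPM, Cxcr3+ Il17a- cells over Cxcr3- Il17a- cells, in the pool (x axis) and in the labelled-negative library (y axis), with 1 point for each of the 2891 genes measured in both. The 5 red points are those at least 1.5-fold apart the same way in both libraries, blue points are other genes of the text, dotted lines mark a ratio of 1.5 either way, and the cloud is wider along the pool's axis, where 10.8% of genes passed the ratio.

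NK cell receptors were the only one of 21 gene lists with a gene that passed the size rule in this comparison, and 18 of the 19 lists with a measured gene had none. Of 26 listed receptors and adaptors 6 were measured, 1 was higher and none lower, and 5 were above 0 on the log2 scale in both libraries. The median log2 ratio of the 6 was 0.44 in the pool and 0.38 in the labelled-negative library, beside -0.01 and 0.01 over all measured genes. Klrk1, which marks these cells in the list of markers, had 168.9 UPM in Cxcr3+ Il17a- cells of the pool and 250.9 UPM in those of the labelled-negative library, against 127.5 and 167.9 UPM in Cxcr3- Il17a- cells. The ratios of 1.325 (0.966 to 1.80) and 1.49 (1.27 to 1.76) both missed 1.5.

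By cells, Klrk1 was found in 40.2% of Cxcr3+ Il17a- cells of the pool and 48.6% of those of the labelled-negative library, against 28.0% and 34.4% of Cxcr3- Il17a- cells and 1.82% of ILC2. Thinned to 2000 UMIs the shares were 23.5% and 26.6% in Cxcr3+ Il17a- cells, against 16.5% and 22.35% in Cxcr3- Il17a- cells. Klrk1 UMIs were thus found in a minority of the cells of either class. Hcst, the adaptor through which NKG2D signals, had 585.9 and 635.4 UPM in Cxcr3+ Il17a- cells, against 549.0 and 540.5 UPM in Cxcr3- Il17a- cells. Cd226, which encodes the activating receptor DNAM-1, had 269.8 and 256.8 UPM in Cxcr3+ Il17a- cells, against 192.6 and 256.4 UPM in Cxcr3- Il17a- cells. Cd48, a ligand of the receptor 2B4, had 239.8 and 239.7 UPM in Cxcr3+ Il17a- cells, against 173.1 and 216.3 UPM in Cxcr3- Il17a- cells.

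Of the genes that mark conventional NK cells, Ncr1, Eomes and Gzma were at or near 0 in the same cells, and Nkg7 and Klrd1 were not in the labelled-negative library. Ncr1 had 0 UPM in Cxcr3+ Il17a- cells of the pool and 1.98 UPM in those of the labelled-negative library, Eomes had 0 and 2.63 UPM, and Gzma had no UMI in either. Nkg7 had 10.9 UPM in the pool and 83.6 UPM in the labelled-negative library, Klrd1 had 0 and 36.9 UPM, Klrc1 had 5.45 and 34.2 UPM, Fcer1g had 0 and 34.2 UPM, and Prf1 had 21.8 and 12.5 UPM. Nkg7 was not higher than in Cxcr3- Il17a- cells, which had 13.96 UPM in the pool and 92.35 UPM in the labelled-negative library. The Fcer1g UMIs of the labelled-negative library lay in 6 cells, 3 of which held 92.3% of them. The limit that a count of 0 allows, 3 UMIs, was 8.175 UPM in the pool and 1.975 UPM in the labelled-negative library.

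The type 1 programme had 7 measured genes of 26, none of which passed the rule, and 6 were above 0 in both libraries. Their median log2 ratio was 0.16 in the pool and 0.14 in the labelled-negative library. Ctsw, which encodes the protease cathepsin W of cytotoxic lymphocytes, had 231.6 UPM in Cxcr3+ Il17a- cells of the pool and 204.1 UPM in those of the labelled-negative library, against 118.2 and 162.7 UPM in Cxcr3- Il17a- cells, ratios of 1.96 and 1.254. Stat4, which carries the IL-12 signal, had 171.7 and 232.4 UPM in Cxcr3+ Il17a- cells, against 137.7 and 214.4 UPM in Cxcr3- Il17a- cells, and Il2rb, the beta chain of the IL-2 and IL-15 receptors, had 294.3 and 404.9 UPM in Cxcr3+ Il17a- cells, against 255.9 and 361.0 UPM in Cxcr3- Il17a- cells.

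T-bet and interferon gamma are the best-known parts of that programme and were below the level of 50 UPM, so they are named here after their values were seen. Tbx21 had 32.7 UPM in Cxcr3+ Il17a- cells of the pool and 35.6 UPM in those of the labelled-negative library, against 10.2 and 23.9 UPM in Cxcr3- Il17a- cells. The ratios were 3.20 (1.29 to 7.99) and 1.49 (0.962 to 2.33). Ifng had 49.0 UPM in Cxcr3+ Il17a- cells of the pool and 28.3 UPM in those of the labelled-negative library, against 5.58 and 32.3 UPM in Cxcr3- Il17a- cells. A single pool cell held 12 of the 18 Ifng UMIs, and in the labelled-negative library the Cxcr3+ Il17a- cells did not exceed the Cxcr3- Il17a- cells.

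The type 17 programme was expressed in the Cxcr3+ Il17a- cells at about the level of the Cxcr3- Il17a- cells. Of 28 listed genes 20 were measured and none passed the rule, with a median log2 ratio of -0.07 in the pool and 0.01 in the labelled-negative library. Maf had 822.9 UPM in Cxcr3+ Il17a- cells of the pool and 967.9 UPM in those of the labelled-negative library, against 828.1 and 888.6 UPM in Cxcr3- Il17a- cells. The lack of Il17a UMIs, fixed by the rule, thus came with transcripts of a factor on which IL-17A production depends.

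Il23r, Sox13, Blk and Zbtb16 also lay within a ratio of 1.5 in both libraries, whereas Ccr6 did not in either and Il17f did not in the pool. Il23r, the receptor of the cytokine that sustains IL-17 production, had 125.3 and 130.4 UPM in Cxcr3+ Il17a- cells, against 155.4 and 144.0 UPM in Cxcr3- Il17a- cells. Sox13 had 109.0 and 112.6 UPM in Cxcr3+ Il17a- cells, against 134.9 and 127.2 UPM in Cxcr3- Il17a- cells, and Blk, a Src-family kinase of IL-17-producing gamma delta T cells, had 411.5 and 306.2 UPM in Cxcr3+ Il17a- cells, against 421.5 and 308.0 UPM in Cxcr3- Il17a- cells. Zbtb16, which encodes the innate-like T cell factor PLZF, had 57.2 and 61.2 UPM in Cxcr3+ Il17a- cells, against 81.9 and 71.7 UPM in Cxcr3- Il17a- cells. Ccr6, a chemokine receptor of IL-17-producing cells, was below the level and named after its values were seen: it had 3 UMIs in Cxcr3+ Il17a- cells of each library, 8.18 and 1.98 UPM, against 53.0 and 7.10 UPM in Cxcr3- Il17a- cells. Those values were 6.49-fold lower (2.11 to 32.4) in the pool and 3.60-fold lower (0.95 to 20.1) in the labelled-negative library. Il17f had 5.45 and 12.5 UPM in Cxcr3+ Il17a- cells, against 21.4 and 10.3 UPM in Cxcr3- Il17a- cells, and the interval of its ratio included 1 in both libraries.

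Among 8 measured chemokine receptors and egress genes of 24, none passed the rule. Ccr6, whose lower values are given above, was not among the 8. Cxcr6, a receptor of tissue-resident lymphocytes, had 1060 UPM in Cxcr3+ Il17a- cells of the pool and 1035 UPM in those of the labelled-negative library, against 975.1 and 973.8 UPM in Cxcr3- Il17a- cells. Klf2, the factor that drives receptors of tissue egress, had 177.1 and 162.6 UPM in Cxcr3+ Il17a- cells, against 134.0 and 111.1 UPM in Cxcr3- Il17a- cells, and Cd69, which opposes egress, had 591.3 and 447.1 UPM in Cxcr3+ Il17a- cells, against 471.7 and 510.2 UPM in Cxcr3- Il17a- cells.

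Itga1, the collagen-binding integrin CD49a of resident lymphocytes, came closest among 12 measured integrins and adhesion genes of 20, none of which passed. It had 68.1 UPM in Cxcr3+ Il17a- cells of the pool and 72.4 UPM in those of the labelled-negative library, against 18.6 and 53.6 UPM in Cxcr3- Il17a- cells, ratios of 3.66 and 1.35. Ly6a, which encodes Sca-1, had 280.7 UPM in Cxcr3+ Il17a- cells against 131.2 UPM in Cxcr3- Il17a- cells of the pool and 163.3 UPM in Cxcr3+ Il17a- cells against 175.0 UPM in Cxcr3- Il17a- cells of the labelled-negative library, so the libraries went opposite ways.

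The remaining lists held no gene that passed. Of 20 immediate early and heat shock genes 17 were measured, and Jun, a subunit of AP-1, had 765.7 UPM in Cxcr3+ Il17a- cells of the pool and 543.9 UPM in those of the labelled-negative library, against 1086 and 785.3 UPM in Cxcr3- Il17a- cells. That list responds to tissue digestion. Its summed level was 14600 UPM in Cxcr3+ Il17a- cells of the pool and 11380 UPM in those of the labelled-negative library, against 13800 and 12340 UPM in Cxcr3- Il17a- cells and 15790 and 14410 UPM in Il17a+ cells, and its part in the results was not tested. Among checkpoints, Pdcd1, which encodes PD-1, had 294.3 UPM in Cxcr3+ Il17a- cells against 175.9 UPM in Cxcr3- Il17a- cells of the pool and 246.3 UPM in Cxcr3+ Il17a- cells against 224.1 UPM in Cxcr3- Il17a- cells of the labelled-negative library. Of 5 measured interferon-response genes none passed, and Irf1 had 133.5 and 146.2 UPM in Cxcr3+ Il17a- cells, against 111.7 and 114.3 UPM in Cxcr3- Il17a- cells. Tox, a factor of early T cell and ILC development, had 13.6 and 57.3 UPM in Cxcr3+ Il17a- cells, against 70.7 and 65.9 UPM in Cxcr3- Il17a- cells. The 13 cycling genes summed to 678.5 and 924.5 UPM in Cxcr3+ Il17a- cells, against 955.6 and 867.3 UPM in Cxcr3- Il17a- cells.

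Against the Il17a+ cells of the same gate, the Cxcr3+ Il17a- cells had more Itga1, Klrk1, Ctsw, Ms4a6b, Ier5l and Klrb1b and less Il17f, Hbegf, Gadd45b, Maff, Ell2 and Homer1. Of 2899 genes measured, 12 were higher (0.414%) and 8 were lower (0.276%) in both libraries by the same size rule, 0.69% together. Since Il17a+ cells hold both Cxcr3+ and Cxcr3- cells, this comparison crosses the Cxcr3 and the Il17a difference.

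NKG2D was among the genes that separated the classes here. Klrk1 had 168.9 UPM in Cxcr3+ Il17a- cells of the pool and 250.9 UPM in those of the labelled-negative library, against 70.7 and 133.0 UPM in Il17a+ cells, ratios of 2.39 (1.75 to 3.23) and 1.89 (1.62 to 2.20). Itga1 had 10.6 and 24.6 UPM in Il17a+ cells, so that the level in Cxcr3+ Il17a- cells was 6.43 times (3.52 to 11.75) and 2.95 times (2.13 to 4.13) as high. It was found in 17 Cxcr3+ Il17a- cells of the pool, 3 of which held 32.0% of its UMIs there. Of the B cell, myeloid or stromal background cells, 46.5% in the pool and 35.0% in the labelled-negative library had an Itga1 UMI. Ctsw had 86.1 and 110.6 UPM in Il17a+ cells, ratios of 2.69 and 1.85. The classes stood in one order for all 3 genes, with Il17a+ cells lowest, Cxcr3- Il17a- cells between and Cxcr3+ Il17a- cells highest in both libraries.

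Ms4a6b, a membrane protein of the MS4A family, had 109.0 UPM in Cxcr3+ Il17a- cells of the pool and 155.4 UPM in those of the labelled-negative library, against 34.0 and 69.1 UPM in Il17a+ cells, and passed under all of 12 other settings. Ier5l, an immediate early response gene, had 92.7 and 83.0 UPM in Cxcr3+ Il17a- cells, against 43.3 and 41.1 UPM in Il17a+ cells. Klf2 had 86.1 and 103.4 UPM in Il17a+ cells, ratios of 2.06 and 1.57, and passed under 4 of the 12. In the pool 3 of 82 cells held 56.9% of its UMIs in Cxcr3+ Il17a- cells, 1 of them 32.3%, and 81.8% of the pool's 99 B cell, myeloid or stromal background cells had a Klf2 UMI. Klrb1b had 28.7 and 54.6 UPM in Il17a+ cells and passed under 3. Without cells with a Trac, Cd4 or Cd8b1 UMI, 29 genes passed, 14 of the 20 among them, and Homer1, Ier5l, Klf2, Klrb1b, Mpp7 and Pde7a did not. Outside the naming rule and named after their values were seen, Gimap6 and Gimap4, GTPases of lymphocyte survival, also passed. Gimap6 had 114.4 and 223.2 UPM in Cxcr3+ Il17a- cells, against 65.4 and 109.7 UPM in Il17a+ cells, and Gimap4 had 100.8 and 218.6 UPM in Cxcr3+ Il17a- cells, against 64.0 and 142.3 UPM in Il17a+ cells.

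The genes that were lower than in Il17a+ cells included Il17f, Gadd45b, Jun, Hbegf and Maff. Il17f, which lies beside Il17a and encodes the related cytokine IL-17F, had 5.45 UPM in Cxcr3+ Il17a- cells of the pool and 12.5 UPM in those of the labelled-negative library, against 81.7 and 76.7 UPM in Il17a+ cells. It was 15.0-fold lower (4.09 to 125) in the pool and 6.13-fold lower (3.81 to 10.4) in the labelled-negative library. Gadd45b, a stress-inducible signalling gene, had 801.1 and 755.9 UPM in Cxcr3+ Il17a- cells, against 1353 and 1210 UPM in Il17a+ cells, and Jun had 765.7 and 543.9 UPM in Cxcr3+ Il17a- cells, against 1156 and 923.0 UPM in Il17a+ cells. Hbegf, an EGF-receptor ligand, had 49.1 and 37.5 UPM in Cxcr3+ Il17a- cells, against 88.8 and 76.3 UPM in Il17a+ cells, and Maff, a small MAF factor, had 70.9 and 57.3 UPM in Cxcr3+ Il17a- cells, against 120.6 and 93.2 UPM in Il17a+ cells.

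By lists, 7 of 21 held a gene that passed. Here 1 of 21 measured type 17 genes was lower and none higher than in Il17a+ cells, and 17 of the 21 lay below 0 in both libraries. Their median log2 ratio was -0.14 in the pool and -0.20 in the labelled-negative library, beside -0.02 and -0.04 over all measured genes. Of 5 measured NK receptors and adaptors 2 were higher, and all 5 lay above 0 in both libraries. All 5 measured interferon-response genes lay above 0 too, with a median log2 ratio of 0.54 in the pool and 0.39 in the labelled-negative library, and none passed the rule. Irf1, an interferon-induced transcription factor, had 106.0 and 111.8 UPM in Il17a+ cells, ratios of 1.26 and 1.31.

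The Cxcr3 split could be repeated in cells that the rule left out, the Il17a+ cells, of which 59 in the pool and 178 in the labelled-negative library had a Cxcr3 UMI, against 404 and 319 without. This comparison was added after the Cxcr3+ Il17a- cells had been described, and none of the other settings was run for it. Of 2917 genes measured, 11 were higher (0.377%) and 8 were lower (0.274%) in Cxcr3+ Il17a+ cells in both libraries, 0.651% together. Klrb1b and Serpina3g were among the 11, and Klrk1 passed here too.

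Klrb1b had 82.4 UPM in Cxcr3+ Il17a+ cells of the pool and 83.1 UPM in those of the labelled-negative library, against 20.4 and 38.1 UPM in Cxcr3- Il17a+ cells. The ratios were 4.04 (2.35 to 6.83) and 2.18 (1.52 to 3.14). Serpina3g had 72.5 and 65.8 UPM in Cxcr3+ Il17a+ cells, against 24.5 and 31.5 UPM in Cxcr3- Il17a+ cells, ratios of 2.96 (1.70 to 5.01) and 2.09 (1.40 to 3.15). For both genes the Cxcr3+ cells were above the Cxcr3- cells whether or not they had Il17a UMIs, in each library. Klrk1 had 118.7 and 174.3 UPM in Cxcr3+ Il17a+ cells, against 63.2 and 109.1 UPM in Cxcr3- Il17a+ cells, ratios of 1.88 and 1.60.

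Not every gene carried over. Basp1 had 72.5 UPM in Cxcr3+ Il17a+ cells against 36.7 UPM in Cxcr3- Il17a+ cells of the pool and 33.5 UPM in Cxcr3+ Il17a+ cells against 51.5 UPM in Cxcr3- Il17a+ cells of the labelled-negative library, opposite ways. Klf2 was lower with Cxcr3 among Il17a+ cells, with 59.4 and 78.5 UPM in Cxcr3+ Il17a+ cells, against 90.3 and 117.8 UPM in Cxcr3- Il17a+ cells, whereas it was higher in Cxcr3+ Il17a- cells than in all Il17a+ cells. Tbx21, below the level in each class, had 16.5 and 26.6 UPM in Cxcr3+ Il17a+ cells against 7.14 and 12.0 UPM in Cxcr3- Il17a+ cells, and Itga1 had 29.7 and 45.02 UPM in Cxcr3+ Il17a+ cells, against 7.65 and 12.7 UPM in Cxcr3- Il17a+ cells. Maf had 857.3 and 921.2 UPM in Cxcr3+ Il17a+ cells, against 863.3 and 917.4 UPM in Cxcr3- Il17a+ cells, and the median Il17a count per cell was 6 and 3 UMIs in Cxcr3+ Il17a+ cells, against 5 and 4 in Cxcr3- Il17a+ cells.

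**Figure D3:**
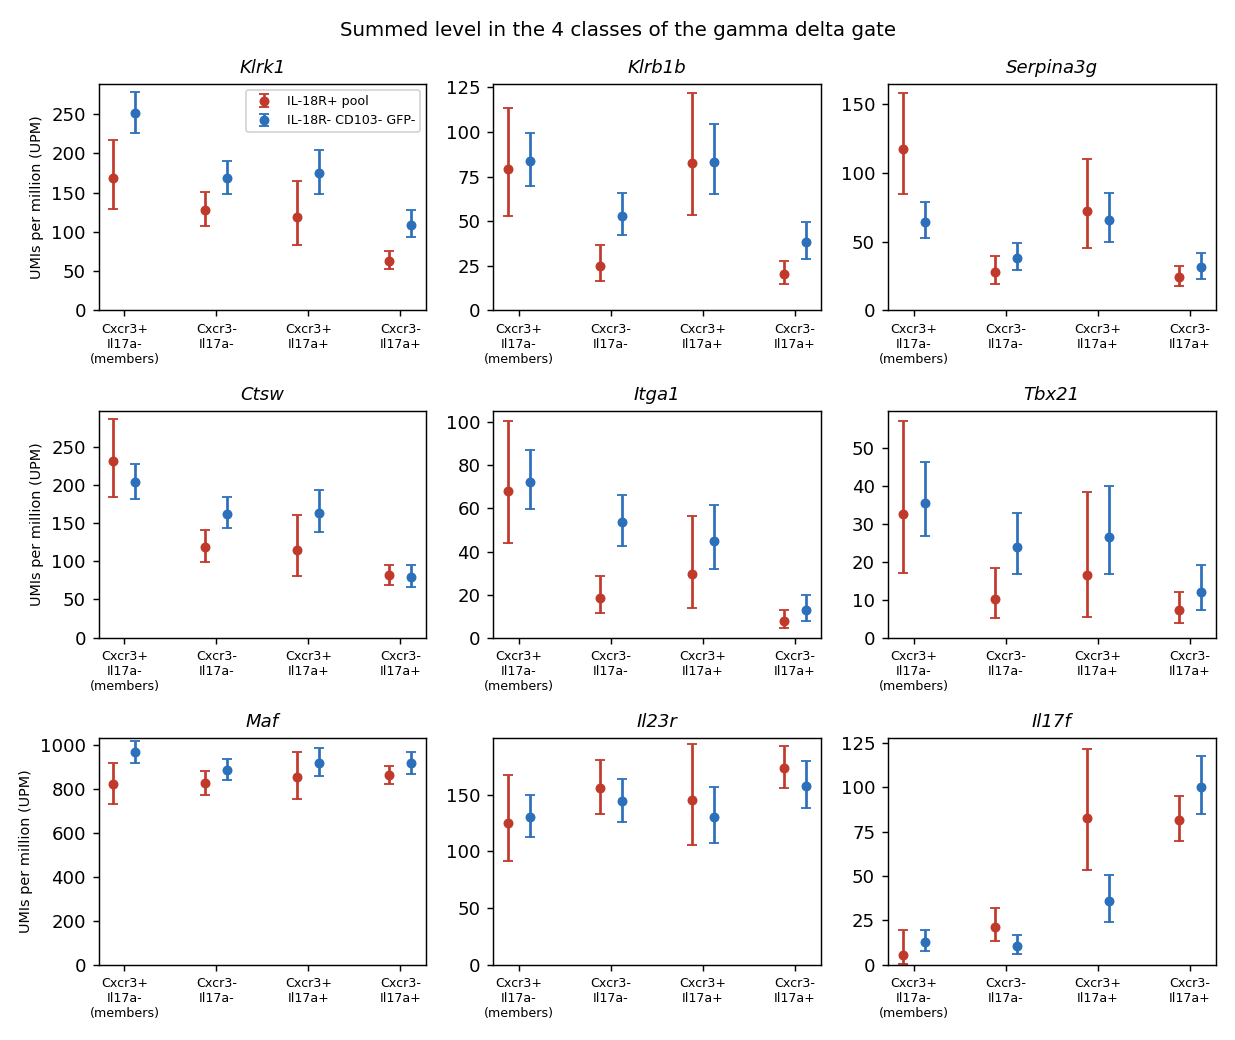
Levels (UPM, linear y axes from 0) of 9 genes in the 4 gate classes, Cxcr3+ Il17a-, Cxcr3- Il17a-, Cxcr3+ Il17a+ and Cxcr3- Il17a+, in the pool and in the labelled-negative library. Error bars are 95% Poisson limits of counting error; Klrb1b and Serpina3g are higher in both Cxcr3+ classes than in the Cxcr3- classes, and Maf is of like level in all 4.

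The promoters of the chemokine receptor and of the 2 genes that went with it among both Il17a- and Il17a+ cells are shown as the 250 bases before the RefSeq start (GRCm38.p6), with motif matches in capitals. Searched on both strands were a T-box core GGTGTG, a gamma-activated site (GAS) TTCNNNGAA and an AP-1 site TGANTCA. Of 32851 mouse promoters of the same length, 16.3% held the T-box core, 7.02% the GAS and 6.75% the AP-1 site. Cxcr3 is at chrX:101734148-101734397 (minus strand), Klrb1b at chr6:128826316-128826565 (minus strand) and Serpina3g at chr12:104235897-104236146 (plus strand).
Cxcr3: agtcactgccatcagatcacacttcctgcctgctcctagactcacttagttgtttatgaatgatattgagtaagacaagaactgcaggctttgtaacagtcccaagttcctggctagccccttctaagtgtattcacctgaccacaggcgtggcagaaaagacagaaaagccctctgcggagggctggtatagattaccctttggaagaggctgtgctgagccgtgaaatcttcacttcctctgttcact
Klrb1b: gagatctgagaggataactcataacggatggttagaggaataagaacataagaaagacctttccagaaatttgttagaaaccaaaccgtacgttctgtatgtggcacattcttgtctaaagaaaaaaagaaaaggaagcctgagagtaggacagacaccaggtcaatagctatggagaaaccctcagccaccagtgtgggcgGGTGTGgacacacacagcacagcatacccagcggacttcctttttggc
Serpina3g: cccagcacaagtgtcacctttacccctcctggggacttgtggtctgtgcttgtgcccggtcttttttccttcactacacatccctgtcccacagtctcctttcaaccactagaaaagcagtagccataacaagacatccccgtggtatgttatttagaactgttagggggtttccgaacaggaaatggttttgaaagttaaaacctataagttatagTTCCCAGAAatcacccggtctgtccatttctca
Klrb1b held a T-box core from 48 to 43 bases upstream of the start. Serpina3g held a GAS from 33 to 25 bases upstream. Cxcr3 and Klrk1 held none of the 3 in this window, and Il17a held an AP-1 site from 244 to 238 bases upstream. A match here describes letters only, since the files hold no measure of binding.

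Between Cxcr3+ Il17a- cells of the pool and of the labelled-negative library, genes past the ratio included the sort marker, some found in many cells and others in few. Of 3192 genes measured, 199 were higher in the pool (6.23%) and 182 lower (5.7%) at a ratio of at least 1.5, 11.9% together. Against Cxcr3- Il17a- cells of their own library, the pool's 82 cells passed that ratio for 10.8% of 3233 genes. The 11.9% alone therefore does not show a broad difference. At least 1 of these genes was in 17 of the 19 lists with a measured gene. With TMM scaling, which shifted the log2 ratio by 0.04, 163 were higher and 204 lower. Itgae, by which the sorts were gated, led with 98.1 UPM in the pool against 2.63 UPM in the labelled-negative library, 37.25-fold higher (13.35 to 144), and was found in 32.9% and 1.26% of cells. Of the 199 higher genes, 136 were on the same side of 0 in the Cxcr3- Il17a- cells of the same libraries and 12 also passed 1.5 there. Of the 182 lower genes the counts were 114 and 24.

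Among widespread genes, Jund, an AP-1 subunit, had 1766 UPM in the pool, where 78 of 82 cells had a UMI, against 1072 UPM in the labelled-negative library. Txk, a Tec-family kinase of T cells, had 139.0 UPM in the pool against 233.7 UPM in the labelled-negative library, where 174 of 317 cells had a UMI. Satb1, a chromatin organiser of T cells, was found in fewer cells, 28 of 82 in the pool and 135 of 317 in the labelled-negative library. It had 122.6 UPM in the pool against 188.3 UPM in the labelled-negative library. Of 17 measured immediate early and heat shock genes, 5 were higher in the pool (Jund, Egr1, Atf3, Hspa1a and Hspa1b) and 1, Nr4a3, was lower, with a median log2 ratio of 0.50 beside 0.03 over all genes. Of the 5 only Jund was found in most pool cells: Egr1 was found in 36 of them, Atf3 in 21, Hspa1b in 9 and Hspa1a in 7. In the same order, 3 pool cells held 47.1%, 42.7%, 64.5% and 63.6% of the UMIs. Of 11 measured type 1 genes, 1 was higher in the pool (Lta) and 4 were lower (Ccl5, Ly6c2, Nkg7 and Txk), with a median log2 ratio of -0.46.

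Several of the largest differences lay in very few cells. All 21 pool UMIs of Cd36, a fatty acid receptor, were in 1 cell, the one with the Cldn5 and Cdh5 UMIs, and 1 cell each held 81.8% of the UMIs of the chemokine gene Cxcl2 and 70.8% of those of Lta, which encodes lymphotoxin alpha. The UMIs of Iigp1, an interferon-inducible GTPase, were in 3 cells. Prkcsh, a glucosidase subunit of the endoplasmic reticulum, was spread over 22 pool cells, with 65.4 UPM in the pool against 25.7 UPM in the labelled-negative library.

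On the lower side, Ccl5 had no UMI in the pool's Cxcr3+ Il17a- cells, against 536 UPM in those of the labelled-negative library, where 25 of 317 cells held all 814 UMIs. Ly6c2 had no UMI in the pool, against 112 UMIs in 13 cells. Ms4a4b had 16.35 UPM in the pool against 170.5 UPM in the labelled-negative library (10.4-fold lower, 4.73 to 28.7), and Nkg7, a cytotoxic granule protein, had 10.9 UPM in the pool against 83.6 UPM in the labelled-negative library (7.67-fold lower, 2.92 to 28.6). The Ms4a4b transcript shares 90.49% of aligned bases with that of Ms4a4c, so its count is uncertain. These genes were lower in the pool's Cxcr3- Il17a- cells too. There Ms4a4b had 36.3 UPM in the pool against 187.3 UPM in the labelled-negative library. Nkg7 had 13.96 against 92.35 UPM in those cells, and Ly6c2 had 0 against 80.7 UPM. Within the labelled-negative library Ccl5 was found in every class, with 598.0 UPM in Cxcr3- Il17a- cells, 134.7 UPM in Il17a+ cells and 4725 UPM in cells outside the gate.

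The 25 cells with Ccl5, the chemokine of memory and cytotoxic T cells, stood apart from the other 292 Cxcr3+ Il17a- cells of the labelled-negative library. They were chosen after Ccl5 had been seen, so what follows is a description. Their median was 7078 UMIs, against 4424 in the cells without Ccl5, and Scrublet called 5 of the 25 and 1 of the 292 as doublets. Ly6c2 was found in 48.0% of cells with Ccl5 against 0.343% of cells without, Nkg7 in 68.0% of cells with against 7.19% without, and Klrd1, the NK receptor chain CD94, in 48.0% with against 0.685% without. Genes of recirculating and CD8 T cells were found too, with Ccr7 in 36.0% of cells with Ccl5 against 0.685% of cells without and Cd8b1 in 16.0% with against 0% without. A count of 0 in 292 cells allows a share of up to 1.03%.

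Genes of the gate were lower in the same 25 cells. Trdc had 1236 UPM in cells with Ccl5 against 2829 UPM in the cells without Ccl5, Trdv4 had 464.1 UPM in cells with Ccl5 against 1312 UPM in cells without Ccl5, and Cd163l1 had 631.9 UPM in cells with Ccl5 against 1105 UPM in cells without Ccl5. Maf had 453.0 UPM in cells with Ccl5 against 1037 UPM in cells without Ccl5. Klrk1, at 313.2 UPM in cells with Ccl5 against 242.6 UPM in cells without Ccl5, was not lower. Without the gate cells that had a Ccl5 UMI, 7 genes passed against Cxcr3- Il17a- cells, 4 of the 5 above among them, and Klrb1b did not. Without the Scrublet calls 6 passed, all 5 among them.

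**Figure D4:**
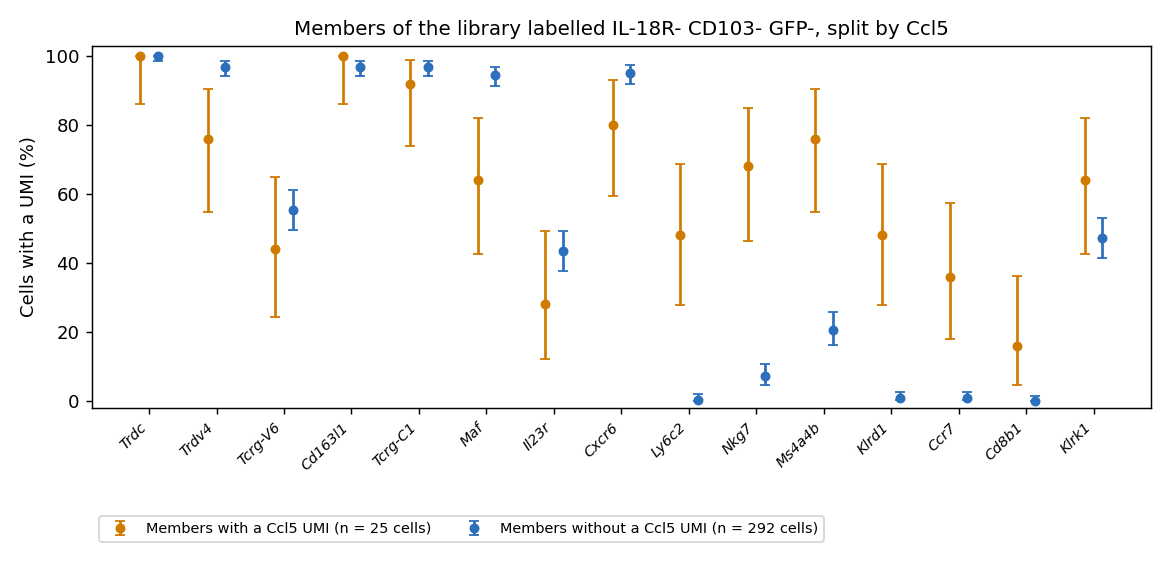
Share of cells with a UMI (percent, y axis) for genes of the gamma delta gate and of other T cells (x axis) in Cxcr3+ Il17a- cells of the labelled-negative library, split into 25 cells with and 292 cells without a Ccl5 UMI. Error bars are 95% Clopper-Pearson limits; Ly6c2 was found in 48.0% of cells with and 0.343% of cells without Ccl5.

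Among the Cxcr3+ Il17a- cells themselves, more Cxcr3 did not bring more of the genes above in both libraries. At least 2 Cxcr3 UMIs were found in 36 cells of the pool and 130 of the labelled-negative library, against 46 and 187 with exactly 1. Itga1 had 113.9 UPM (89.5 to 143) with at least 2 Cxcr3 UMIs, against 41.4 UPM (29.0 to 57.3) with 1, in the labelled-negative library, and 55.9 UPM with at least 2 Cxcr3 UMIs, against 77.7 UPM with 1, in the pool. Klrk1 had 111.7 UPM (66.2 to 176.6) with at least 2 Cxcr3 UMIs, against 213.7 UPM (155.3 to 286.9) with 1, in the pool and 250.9 UPM with at least 2 Cxcr3 UMIs, against 250.8 UPM with 1, in the labelled-negative library.

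Serpina3g had 49.65 UPM with at least 2 Cxcr3 UMIs against 170.0 UPM with 1 in the pool, and 75.4 UPM with at least 2 Cxcr3 UMIs, against 56.4 UPM with 1, in the labelled-negative library. Klrb1b had 105.5 UPM with at least 2 Cxcr3 UMIs, against 58.3 UPM with 1, in the pool and 81.6 UPM with at least 2 Cxcr3 UMIs, against 85.1 UPM with 1, in the labelled-negative library. For Itga1, Serpina3g and Klrb1b the 2 libraries thus went opposite ways, and the groups of the pool were small.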

How the data were processed

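Per the labels' protocols, cells were sorted from lungs of GFI1B-GFP reporter mice and made into 10x Chromium 3' libraries. The authors ran Cell Ranger 6.0.1 with build mm10, per the submitters' processing notes; the annotation is not given in the sources used here. The deposited matrices hold counts of UMIs for 32285 features per barcode, not normalised. Ambient RNA was not removed.

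Counts were summed over the cells of a class within a library and divided by the class total of UMIs (UPM, per 1000000). Members, gene lists and rules were chosen with earlier results of these data known. With 1 library per group there was no test. Genes were named by size: the 10 largest passing per direction against Cxcr3- Il17a- cells, 6 against Il17a+ cells and between libraries, up to 4 per list, all measured receptor chains and the rule genes. Other genes (such as Maf, Hcst and Ncr1) were chosen after their values were seen. Some genes are not reported here. Intervals are exact: Poisson for sums, conditional binomial for ratios, Clopper-Pearson for shares. They cover counting error only. Shares were also taken after thinning to 2000 UMIs. ILC2 (at least 2 Il1rl1 UMIs, no Cd3e, Cd3d or Trdc) of the third library gave shares for comparison. They do not measure free RNA in the gated libraries, and ILC2 can express some of these genes themselves. The rule was tested on simulated data.

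Scrublet called 4 of 1659 cells of the pool (0.241%) and 11 of 1883 of the other library (0.584%), 15 of 3542 in all, below the expected 1.35% and 1.52%, so doublets were left in; 6 calls were Cxcr3+ Il17a- cells. Tools were numpy 2.4.6, scipy 1.17.1, pandas 2.3.3, scanpy 1.11.5 and matplotlib 3.10.9. Segments are from GENCODE M21 and promoters from RefSeq.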

Additional observations from a re-analysis of the deposited data

Results flagged for a closer look

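Prkcsh differed in opposite ways between Cxcr3+ Il17a- and Cxcr3- Il17a- cells of the 2 libraries. Its log2 ratio was 0.85 in the pool, from 65.4 UPM in Cxcr3+ Il17a- cells against 36.3 UPM in Cxcr3- Il17a- cells, and -1.19 in the labelled-negative library, from 25.7 UPM in Cxcr3+ Il17a- cells against 58.8 UPM in Cxcr3- Il17a- cells. The difference between the libraries was not tested, since each is 1 sample.

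The library labelled IL-18R- ST2+, which served only for comparison shares of ILC2, held 5 cells of 1622 inside the gamma delta gate. They had 57 Trdc, 16 Cd163l1, 23 Trdv4 and 49 Il17a UMIs in all. By their UMIs 1 of the 5 would be a Cxcr3+ Il17a- cell and 2 had an Il17a UMI.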

How the results depend on the processing

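No paired analysis was possible because no replicate number pairs a library with another and no test was run. With 1 library per group no replicate could be left out, and the spread between mice is unknown. Of 47 values of the main results under other settings, 29 stayed within 1.5 times or within counting error and 18 moved. Against Cxcr3- Il17a- cells, 5 genes passed; the count was 51 at a level of 20 UPM, 0 at 100 UPM, 0 at a ratio of 2, 27 with thinned cells (2 shared), 22 with at least 2 Cxcr3 UMIs (1 shared) and 8 without cycling cells. Against Il17a+ cells, 20 passed, with 62, 12, 4 and 40 (14 shared) under the level of 20 UPM, 100 UPM, the ratio of 2 and thinning. Between Cxcr3+ Il17a- cells of the pool and of the labelled-negative library, 381 passed, with 1288, 96, 65 and 787 (228 shared) under the same settings. Thinned, the Cxcr3+ Il17a- share of the gate was 7.154% in the pool and 20% in the other library, and Klrk1 was found in 23.46% and 26.58% of these cells. Scaling by TMM moved log2 ratios by at most 0.04 in these comparisons. Over the named genes, 1742 values under other settings were counted as unchanged. These were genes that still passed the size rule, or genes that had not passed and moved by less than counting error. Another 65 values no longer passed and 26 newly passed. The other 29 had not passed in the main setting and moved by more than counting error. The cause was not tested.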

Other observations

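Il22, which encodes a cytokine of type 17 cells that acts on epithelium, was among the genes higher in Cxcr3+ Il17a+ cells than in Cxcr3- Il17a+ cells. It had 59.4 UPM in Cxcr3+ Il17a+ cells of the pool and 60.03 UPM in those of the labelled-negative library, against 22.4 and 15.4 UPM in Cxcr3- Il17a+ cells. It lay in few cells: 3.39% and 3.37% of Cxcr3+ Il17a+ cells had an Il22 UMI, against 2.72% and 2.82% of Cxcr3- Il17a+ cells. Cxcl10, a ligand of CXCR3, had 65.95 and 92.35 UPM in Cxcr3+ Il17a+ cells, against 22.95 and 48.2 UPM in Cxcr3- Il17a+ cells. Gem, a small GTPase induced by activation, had 187.9 and 280.5 UPM in Cxcr3+ Il17a+ cells, against 61.7 and 174.6 UPM in Cxcr3- Il17a+ cells. Nrp1, a coreceptor of semaphorins and VEGF, was lower, with 16.5 and 33.5 UPM in Cxcr3+ Il17a+ cells, against 62.2 and 66.3 UPM in Cxcr3- Il17a+ cells. In Cxcr3+ Il17a- cells Il22 had 10.9 and 5.27 UPM, against 27.4 and 31.8 UPM in all Il17a+ cells.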
